A study of Mus musculus with 2 samples.

Results

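The vagus nerve ganglia of the mouse were examined for 32 genes that make, break down or switch on the production of cyclic nucleotides, namely 20 phosphodiesterases, 10 adenylyl cyclases and the genes of 2 stimulatory G protein alpha subunits. The members were taken by gene symbol from the features of the count table, which lists 32286 features, and each of the 32 symbols was found and had UMIs. The rule used no measured value, but the members were chosen with earlier results of these data known. Of the members, 21 had over 1000 UMIs in all nuclei and 3 had under 100.

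Nuclei were isolated from flash-frozen vagus nerve ganglia of C57BL/6J mice with the genotype Rosa26-floxed-STOP-Cas9-eGFP, which were bought at 8 to 9 weeks of age, fed a standard chow diet, and given AAVrg-Cre, a retrograde virus that carries Cre, into the liver 4 weeks before collection. The female pool held 14 ganglia of 7 mice and the male pool 16 ganglia of 8 mice, and each pool gave 1 library. All mice received the virus, so that no untreated group was analysed here, and sex and library cannot be told apart. Cre works only in cells the virus reached, and the sources used here describe no sort for it.

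Cyclic AMP is made from ATP by adenylyl cyclases, most of which sit in the plasma membrane and are switched on by the stimulatory G proteins Gs, encoded by *Gnas*, and Golf, encoded by *Gnal*. Phosphodiesterases break down cyclic AMP, cyclic GMP or both, and the families differ in which nucleotide they accept and in what regulates them. In sensory neurons cyclic AMP signalling, through protein kinase A and exchange factors, is known for raising excitability after inflammatory mediators act on Gs-coupled receptors.

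The values are UMI counts of single nuclei. A level is given as UMIs of a gene per 10000 UMIs of all genes in the same nuclei, and intervals are exact 95% intervals of the counts, which cover counting error only. The counts take in intronic reads, so that levels of different genes depend on gene length and are not compared with each other. The female library held 3791 nuclei with 17435300 UMIs and the male library 4923 nuclei with 27529730 UMIs, and 8 barcodes occurred in both. Clusters were built with the members, a list of other pathway genes and the sex-linked genes left out, and were named from marker genes. The named classes with at least 20 nuclei in each library were 11, among them sensory neuron-like nuclei (662 female, 1446 male). Granule cell-like nuclei (471 female, 25 male) and sympathetic neuron-like nuclei (9 female, 148 male) came mostly from 1 library, and granule cells of the cerebellum and pituitary cells are not part of a vagal ganglion. The 12 markers of neurons were present in every tested class. Their summed level was 60.9 in sensory neuron-like nuclei and 20.6 to 45.3 in the non-neuronal classes, and within the non-neuronal classes it was 16.5 to 32.8 with female and 33.9 to 58.3 with male nuclei. For comparisons of classes, UMIs were summed per library and class and each class was tested against the mean of the others with edgeR (quasi-likelihood test, Benjamini-Hochberg adjustment over all 12364 genes tested). The replicates are the 2 libraries, and the library is a term of the fit, so that a shift shared by all classes of a library is taken out. The p-values therefore rest on how far the differences between classes varied between these 2 pools, and do not measure the spread between the pools themselves. A fold change is given as log2 with its standard error.

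Most members differed between classes, and they did so in both directions. Over the 11 contrasts, 76 of the 319 tests of members were higher (23.8%, against 12.3% for all genes) and 61 were lower (19.1%, against 6.88% for all genes) in edgeR. Without the library term 38 were lower (11.9%, against 3.57% for all genes). The contrasts are not independent, since each class also stands in the reference of the others. The members were chosen with earlier results known and were not matched with all genes for their number of UMIs, here and below. In 136 of these 137 calls the direction was the same in each library taken alone, the exception being *Pde1a* in pituitary cell-like nuclei (log2 fold change -0.08 with female and 1.501 with male nuclei alone). The calls come from these same 2 libraries, so that such agreement, here and below, is no separate evidence. *Pde1b*, *Pde6a* and *Pde6b* fell below the filter on low counts and were not tested. *Pde4c*, *Adcy4* and *Adcy7* passed the filter only through the class where their level was highest, so that their calls there, which are among the 76, are a matter of the selection and are given below as levels with no test. Classes differed in which direction prevailed, and the shares for all genes are given in brackets. Sensory neuron-like nuclei had 13 of 29 members higher and 8 lower (26.0% and 19.6%). Mural cell-like nuclei had 8 and 2 (3.91% and 1.66%), barrier fibroblast-like nuclei 7 and 6 (13.4% and 6.7%), and endothelial cell-like nuclei 5 and 3 (10.9% and 4.54%). Fibroblast-like nuclei had 2 and 5 (7.29% and 3.22%), macrophage-like nuclei 4 and 8 (11.9% and 6.31%), and satellite glia-like nuclei 4 and 7 (10.8% and 5.98%). Adipocyte-like nuclei had 11 of 29 members higher and 4 lower (all genes 12.4% and 7.16%), pituitary cell-like nuclei 10 and 3 (13.8% and 7.03%), and granule cell-like nuclei 9 and 1 (9.2% and 1.31%). Schwann cell-like nuclei had 3 higher and 14 lower (16.3% and 12.2%), with a median log2 fold change of -0.92 over the members and 0.03 over all genes.

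**Figure D1:**
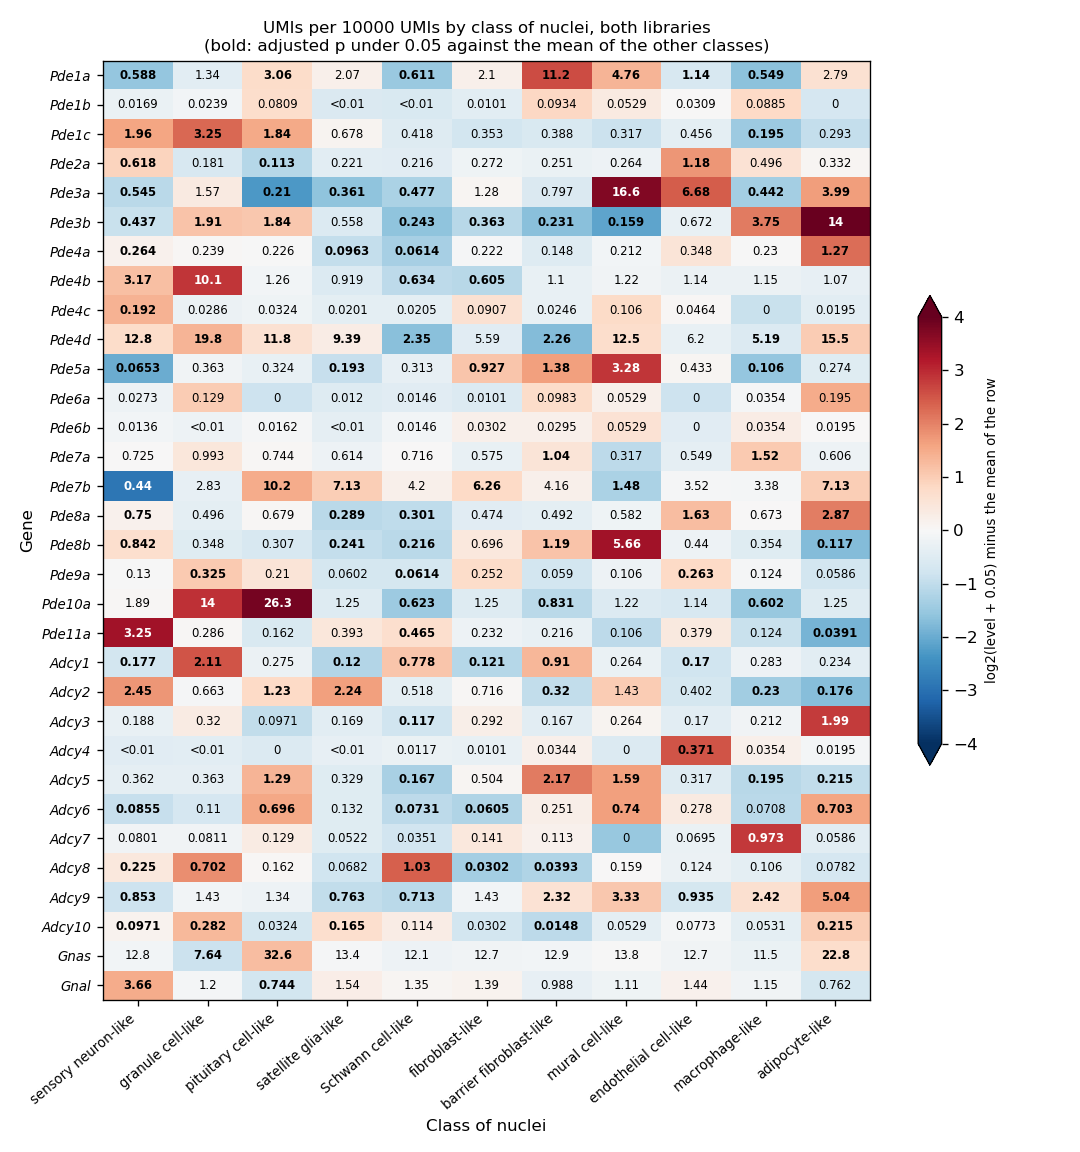
Levels of the 32 members (rows) in the 11 tested classes (columns), as UMIs per 10000 UMIs over both libraries; colours show log2(level + 0.05) minus the mean of the row, and bold values passed edgeR against the mean of the other classes. High levels include *Pde3b* in adipocyte-like nuclei (14.0), *Pde3a* in mural cell-like nuclei (16.6), *Pde10a* in pituitary cell-like nuclei (26.3) and *Pde11a* in sensory neuron-like nuclei (3.25).

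The calcium and calmodulin-stimulated phosphodiesterases *Pde1a* and *Pde1c* were highest in different classes. *Pde1a* was highest in barrier fibroblast-like nuclei, with a level of 11.5 in the female pool and 10.9 in the male pool (log2 fold change 2.94 ± 0.15, edgeR adjusted p = 1.36e-16). It was also higher in mural cell-like nuclei, at 5.06 in the female pool and 4.45 in the male pool (edgeR adjusted p = 0.000654). In sensory neuron-like nuclei *Pde1a* was lower, at 0.669 in the female pool and 0.550 in the male pool (log2 fold change -1.49 ± 0.21, edgeR adjusted p = 3.83e-07). *Pde1c* was higher in these nuclei. Its level was 2.16 in the female pool and 1.86 in the male pool in sensory neuron-like nuclei (log2 fold change 2.15 ± 0.17, edgeR adjusted p = 1.76e-12), and 3.26 in the female pool and 3.09 in the male pool in granule cell-like nuclei. In pituitary cell-like nuclei both genes were higher in the fit of both libraries, *Pde1a* at 1.70 in the female pool and 4.38 in the male pool (edgeR adjusted p = 0.00294) and *Pde1c* at 1.54 in the female pool and 2.14 in the male pool (edgeR adjusted p = 1.47e-06). With female nuclei alone the direction of *Pde1a* there was the opposite, so that its excess rests on the male library. In macrophage-like nuclei *Pde1c* was lower, at 0.253 in the female pool and 0.139 in the male pool, on 7 and 4 UMIs (edgeR adjusted p = 0.00438). *Pde1b* was scarce in every tested class, with at most 0.0934 over both libraries.

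Of the phosphodiesterases that cyclic GMP stimulates or inhibits, each peaked in a different cell of the vessels or the fat. *Pde2a*, which cyclic GMP stimulates, had its highest level in endothelial cell-like nuclei, 1.07 in the female pool and 1.27 in the male pool (log2 fold change 2.04 ± 0.22, edgeR adjusted p = 5.56e-09). Sensory neuron-like nuclei came next, at 0.657 in the female pool and 0.599 in the male pool (log2 fold change 1.37 ± 0.17, edgeR adjusted p = 4.23e-08). *Pde3a*, the cyclic GMP-inhibited enzyme of cardiovascular tissue, reached 17.9 in the female pool and 15.3 in the male pool in mural cell-like nuclei (log2 fold change 4.06 ± 0.23, edgeR adjusted p = 1.26e-14). In endothelial cell-like nuclei *Pde3a* was higher than in the mean of the others in each library, but the libraries were far apart, at 10.7 in the female pool and 3.44 in the male pool. The libraries also differed in their mix of the clusters that form this class, and the part of that was not tested. *Pde3b*, which mediates the antilipolytic action of insulin in fat, was at 13.6 in the female pool and 15.1 in the male pool in adipocyte-like nuclei (log2 fold change 4.52 ± 0.18, edgeR adjusted p = 1.03e-19). Macrophage-like nuclei followed at 4.34 in the female pool and 3.19 in the male pool (log2 fold change 2.37 ± 0.22). *Pde3b* was thus high in adipocyte-like nuclei in both libraries, and its intervals there lay above those of every other class.

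Among the cyclic AMP-specific phosphodiesterases of family 4, *Pde4b* and *Pde4d* were higher in sensory neuron-like and granule cell-like nuclei. *Pde4d* was also higher in other classes, and *Pde4a* peaked in adipocyte-like nuclei. *Pde4b*, a target of anti-inflammatory inhibitors, was at 3.98 in the female pool and 2.79 in the male pool in sensory neuron-like nuclei (log2 fold change 1.69 ± 0.17, edgeR adjusted p = 7.81e-10). Granule cell-like nuclei held more, at 10.2 in the female pool and 8.77 in the male pool (log2 fold change 3.04 ± 0.19, edgeR adjusted p = 4.15e-14). Sympathetic neuron-like nuclei, which were too few in the female library to test, had the highest named level, 23.0 in the female pool and 33.7 in the male pool. *Pde4d*, the longest member gene, was high in granule cell-like nuclei at 19.95 in the female pool and 15.4 in the male pool, in adipocyte-like nuclei at 17.3 in the female pool and 9.50 in the male pool and in sensory neuron-like nuclei at 13.9 in the female pool and 12.3 in the male pool. The sensory neuron-like nuclei were higher in *Pde4d* than the mean of the other classes (log2 fold change 1.13 ± 0.14, edgeR adjusted p = 3.73e-08). Smaller excesses of *Pde4d* were those of adipocyte-like (0.88), pituitary cell-like (0.75), mural cell-like (0.61) and satellite glia-like nuclei (0.52), with an edgeR adjusted p of at most 0.0307. Schwann cell-like nuclei, at 2.95 in the female pool and 1.94 in the male pool, and barrier fibroblast-like nuclei, at 2.44 in the female pool and 2.11 in the male pool, were lower. *Pde4c* was scarce and had 464 of its 513 UMIs in sensory neuron-like nuclei, which held 24213946 of the 44965030 UMIs of all genes. The level of *Pde4c* there was 0.169 in the female pool and 0.202 in the male pool. Its interval overlapped that of mural cell-like nuclei, which had the higher level in the female library. *Pde4a* was highest in adipocyte-like nuclei, at 1.23 in the female pool and 1.39 in the male pool (edgeR adjusted p = 7.13e-09). It was also higher in sensory neuron-like nuclei (log2 fold change 0.53 ± 0.19, edgeR adjusted p = 0.0213).

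The phosphodiesterases that break down cyclic GMP alone were stromal or scarce. *Pde5a*, the target of sildenafil in vascular smooth muscle, was at 3.41 in the female pool and 3.14 in the male pool in mural cell-like nuclei (log2 fold change 3.25 ± 0.35, edgeR adjusted p = 2.41e-08). Among the tested classes barrier fibroblast-like nuclei followed at 1.68 in the female pool and 1.15 in the male pool. An unnamed cluster of 166 female and 362 male nuclei, not tested, had 2.12 in the female pool and 1.59 in the male pool. Sensory neuron-like nuclei were lowest, at 0.0783 in the female pool and 0.0591 in the male pool (log2 fold change -2.47 ± 0.27, edgeR adjusted p = 3.76e-09). *Pde9a*, a high-affinity enzyme, was low in every tested class, with its highest level, 0.320 in the female pool and 0.487 in the male pool, in granule cell-like nuclei (edgeR adjusted p = 0.00199). These levels rest on 65 female and 3 male UMIs. The interval of the level in granule cell-like nuclei overlapped the next class, endothelial cell-like nuclei at 0.312 in the female pool and 0.223 in the male pool. *Pde6a* and *Pde6b*, the rod photoreceptor enzymes, had 160 and 65 UMIs in all nuclei.

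The cyclic AMP-specific families 7 and 8 were highest outside the sensory neurons. *Pde7b* showed the largest deficit of any member in sensory neuron-like nuclei, with a level of 0.400 in the female pool and 0.459 in the male pool (log2 fold change -3.04 ± 0.23, edgeR adjusted p = 1.18e-12). Satellite glia-like nuclei, which wrap the neurons, had 7.07 in the female pool and 7.16 in the male pool (log2 fold change 1.23 ± 0.17). The highest *Pde7b* level of the tested classes was in pituitary cell-like nuclei, at 14.2 in the female pool and 6.26 in the male pool. Satellite glia-like nuclei led the tested classes in the male library alone. An unnamed cluster of 166 female and 362 male nuclei, not tested, had 5.84 in the female pool and 11.7 in the male pool. *Pde7a*, known from T cells and other leukocytes, was highest in macrophage-like nuclei, at 1.66 in the female pool and 1.39 in the male pool (log2 fold change 1.16 ± 0.21, edgeR adjusted p = 5.53e-05). *Pde8a* was highest in adipocyte-like nuclei, at 3.18 in the female pool and 1.88 in the male pool (edgeR adjusted p = 1.34e-09), with endothelial cell-like nuclei next at 1.47 in the female pool and 1.76 in the male pool. *Pde8b* was highest in mural cell-like nuclei, at 5.57 in the female pool and 5.75 in the male pool (log2 fold change 3.70 ± 0.27, edgeR adjusted p = 5.16e-12). In adipocyte-like nuclei *Pde8b* was lower, at 0.128 in the female pool and 0.0819 in the male pool (edgeR adjusted p = 0.00443), while *Pde8a* was higher there. These *Pde8b* levels rest on 5 female UMIs and 1 male UMI. Sensory neuron-like nuclei were higher than the mean of the other classes in *Pde8b* (log2 fold change 1.13 ± 0.18, edgeR adjusted p = 2.61e-06). They were also higher in *Pde8a* (log2 fold change 0.48 ± 0.16, edgeR adjusted p = 0.0163).

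The dual-specificity enzymes PDE10A and PDE11A were highest in different classes. *Pde10a*, the enzyme of striatal projection neurons, was at 29.6 in the female pool and 23.0 in the male pool in pituitary cell-like nuclei (log2 fold change 4.36 ± 0.17, edgeR adjusted p = 1.23e-19). Granule cell-like nuclei had 14.2 in the female pool and 9.42 in the male pool (log2 fold change 2.97 ± 0.20, edgeR adjusted p = 1.9e-13). In sensory neuron-like nuclei *Pde10a* was at 2.23 in the female pool and 1.73 in the male pool, and the difference from the mean of all other classes did not pass (log2 fold change 0.45 ± 0.20, edgeR adjusted p = 0.0687). *Pde11a* was the member with the largest excess in sensory neuron-like nuclei. Its level there was 4.09 in the female pool and 2.85 in the male pool, and in the other tested classes it was 0.0391 to 0.465 over both libraries. The log2 fold change was 4.36 ± 0.15 (edgeR adjusted p = 6.38e-21). Of the 8646 *Pde11a* UMIs, 7866 were in sensory neuron-like nuclei, which held 24213946 of the 44965030 UMIs of all genes.

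**Figure D2:**
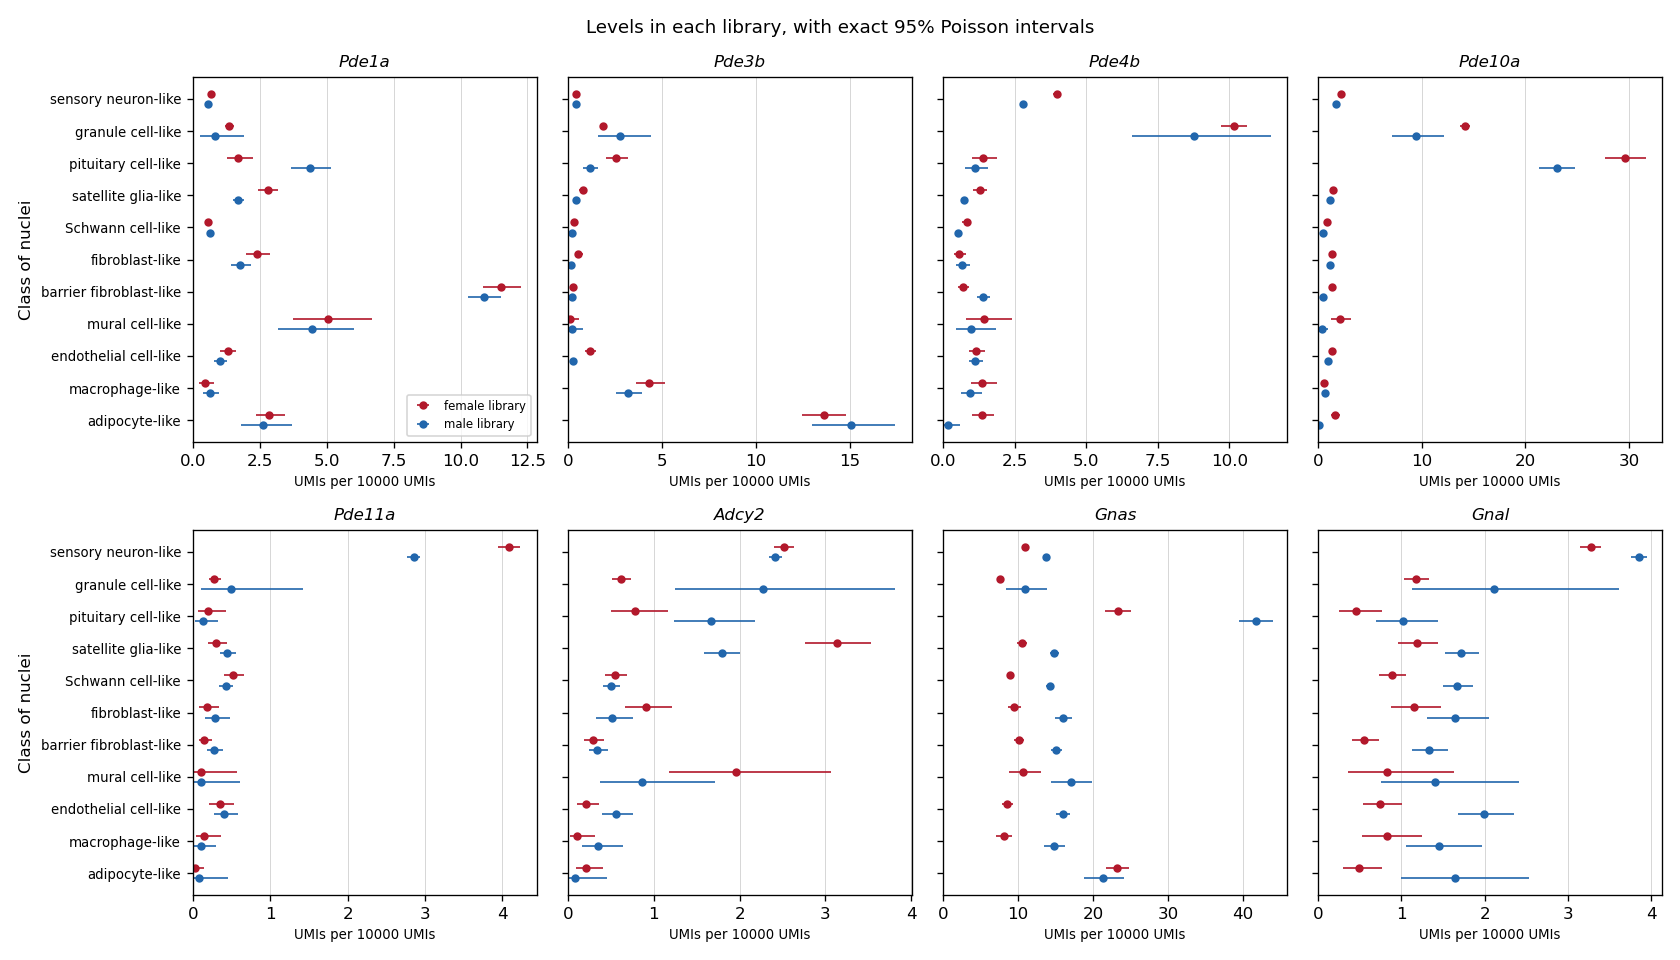
Levels of 8 members in the 11 tested classes (rows) in the female (red) and the male (blue) library, in UMIs per 10000 UMIs, with exact 95% Poisson intervals; each panel has its own scale. *Pde11a* separated sensory neuron-like nuclei (4.09 and 2.85) from the rest in both libraries, while for *Gnas* the male library was higher in 10 of the 11 classes.

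Among the cyclases stimulated by calcium and calmodulin, *Adcy1*, *Adcy3* and *Adcy8* had distinct sites. *Adcy1* was highest in granule cell-like nuclei, at 2.11 in the female pool and 1.95 in the male pool (log2 fold change 2.88 ± 0.20, edgeR adjusted p = 2.96e-13). It was higher in barrier fibroblast-like nuclei, at 1.01 in the female pool and 0.829 in the male pool, and in Schwann cell-like nuclei, at 0.951 in the female pool and 0.661 in the male pool, and lower in sensory neuron-like nuclei, at 0.171 in the female pool and 0.180 in the male pool (edgeR adjusted p = 0.00755). *Adcy8* was highest in Schwann cell-like nuclei, at 1.31 in the female pool and 0.837 in the male pool (log2 fold change 3.21 ± 0.23, edgeR adjusted p = 6.68e-13). It was the only member whose highest level over both libraries lay in these nuclei, and in the male library alone granule cell-like nuclei were higher. *Adcy3*, the cyclase of olfactory cilia, was highest in adipocyte-like nuclei, at 2.26 in the female pool and 1.15 in the male pool (log2 fold change 3.29 ± 0.25, edgeR adjusted p = 2.17e-12).

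Among the cyclases that G protein beta-gamma subunits can stimulate, *Adcy2* was highest in neurons and glia and the others in endothelial and macrophage-like nuclei. *Adcy2* was at 2.52 in the female pool and 2.41 in the male pool in sensory neuron-like nuclei (log2 fold change 2.27 ± 0.19, edgeR adjusted p = 9.28e-12). Satellite glia-like nuclei were at 3.13 in the female pool and 1.79 in the male pool (log2 fold change 2.07 ± 0.22, edgeR adjusted p = 4.46e-09), so that the order of both classes changed between the libraries. *Adcy4* was found mainly in endothelial cell-like nuclei, with 48 of its 77 UMIs there and a level of 0.485 in the female pool and 0.279 in the male pool. *Adcy7* was highest in macrophage-like nuclei, at 1.23 in the female pool and 0.729 in the male pool, and the next class, fibroblast-like nuclei, was at 0.178 in the female pool and 0.103 in the male pool.

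The calcium-inhibited cyclases *Adcy5* and *Adcy6* were each higher in several classes. *Adcy5* was at 2.68 in the female pool and 1.77 in the male pool in barrier fibroblast-like nuclei (log2 fold change 2.50 ± 0.16, edgeR adjusted p = 1.76e-14) and at 2.27 in the female pool and 0.867 in the male pool in mural cell-like nuclei, and these levels overlapped within their intervals. *Adcy6* was higher in pituitary cell-like nuclei, at 0.688 in the female pool and 0.703 in the male pool (edgeR adjusted p = 3.72e-06), in adipocyte-like nuclei, at 0.693 in the female pool and 0.737 in the male pool (edgeR adjusted p = 2.96e-05), and in mural cell-like nuclei, at 0.929 in the female pool and 0.542 in the male pool (edgeR adjusted p = 0.00985), and the order of these 3 classes differed between the pools. In sensory neuron-like nuclei *Adcy6* was lower, at 0.114 in the female pool and 0.0719 in the male pool (log2 fold change -0.91 ± 0.22, edgeR adjusted p = 0.000844). *Adcy9*, which responds little to forskolin, was highest in adipocyte-like nuclei, at 5.47 in the female pool and 3.69 in the male pool (log2 fold change 1.74 ± 0.18, edgeR adjusted p = 3.02e-09). It was lower in sensory neuron-like nuclei, at 0.970 in the female pool and 0.798 in the male pool (edgeR adjusted p = 0.00231). *Adcy10*, the soluble cyclase activated by bicarbonate, was low throughout, with 0.285 in the female pool and 0.162 in the male pool in granule cell-like nuclei (edgeR adjusted p = 4.35e-05). These *Adcy10* levels rest on 58 female UMIs and 1 male UMI. In satellite glia-like nuclei *Adcy10* was higher too, at 0.227 in the female pool and 0.133 in the male pool, on 19 and 22 UMIs (edgeR adjusted p = 0.00197). It was also higher in sensory neuron-like (edgeR adjusted p = 0.0215) and adipocyte-like nuclei (edgeR adjusted p = 0.0361), and lower in barrier fibroblast-like nuclei (edgeR adjusted p = 0.00607).

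The G protein genes differed in spread. *Gnas* was abundant in every tested class, and only 3 classes departed from the mean of the others. It was higher in pituitary cell-like nuclei, at 23.4 in the female pool and 41.7 in the male pool (log2 fold change 1.36 ± 0.15, edgeR adjusted p = 2.72e-08), and in adipocyte-like nuclei, at 23.2 in the female pool and 21.4 in the male pool (edgeR adjusted p = 0.000338), and lower in granule cell-like nuclei, at 7.54 in the female pool and 10.9 in the male pool (edgeR adjusted p = 0.0162). *Gnal*, first known from the olfactory epithelium and the striatum, was highest in sensory neuron-like nuclei. Its level there was 3.27 in the female pool and 3.85 in the male pool (log2 fold change 1.92 ± 0.13, edgeR adjusted p = 9.02e-14). Over both libraries satellite glia-like nuclei came next, at 1.18 in the female pool and 1.72 in the male pool. In the male library alone granule cell-like (2.11) and endothelial cell-like nuclei (1.99) were above them. *Gnal* overlaps *Chmp1b* on the same strand, and reads from the overlap may belong to either. A gene of the opposite strand overlaps 13 of the members, *Gnas* and *Gnal* among them, and no source read here says whether the counting separated strands.

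Against the mean of the non-neuronal classes, without granule cell-like nuclei, 14 of 29 members were higher in sensory neuron-like nuclei (48.3%, against 25.8% for all genes) and 7 were lower (24.1%, against 19.6%). Pituitary cell-like nuclei, which are not part of a vagal ganglion, were kept among these non-neuronal classes. The contrast is therefore not one against non-neuronal cells of the ganglion alone. With clusters on 10 components and wider neighbourhoods, where 829 and not 2108 nuclei were named sensory neuron-like, 7 of 30 members were higher (23.3%, against 23.5% for all genes), so that the larger share among the members rests on the clusters used. Without the library term 11 were higher (37.9%, against 19.4%) and 4 were lower (13.8%, against 12.6%). The median log2 fold change was 0.55 over the members and 0.02 over all genes. The 14 include *Pde4c*, which passed the filter only through these nuclei. The leading other members were *Pde11a* (4.43 ± 0.15), *Pde1c* (2.43 ± 0.17) and *Adcy2* (2.31 ± 0.20), each with an edgeR adjusted p of at most 1.09e-11. *Gnal* (1.98 ± 0.13), *Pde4b* (2.01 ± 0.17), *Adcy8* (1.32 ± 0.26), *Pde2a* (1.32 ± 0.18), *Pde4d* (1.27 ± 0.14) and *Pde8b* (1.09 ± 0.18) followed, with an edgeR adjusted p of at most 7.66e-05. Smaller excesses were those of *Adcy10* (0.93 ± 0.27), *Pde10a* (0.76 ± 0.20), *Pde4a* (0.55 ± 0.20) and *Pde8a* (0.44 ± 0.17), with an edgeR adjusted p of at most 0.0325. Those of *Pde4a*, *Pde8a* and *Pde10a* did not pass with DESeq2 or without the library term, and those of *Pde4a* and *Adcy10* turned to -0.59 and -0.145 with clusters built on 10 components and wider neighbourhoods. The lower members were *Pde7b* (-3.12 ± 0.23), *Pde5a* (-2.52 ± 0.28), *Pde1a* (-1.56 ± 0.21), *Adcy6* (-1.02 ± 0.23), *Pde3a* (-0.89 ± 0.24), *Adcy9* (-0.64 ± 0.16) and *Pde3b* (-0.57 ± 0.24), with an edgeR adjusted p of at most 0.0482. *Pde7a*, *Pde9a*, *Adcy1*, *Adcy3*, *Adcy4*, *Adcy5*, *Adcy7* and *Gnas* did not pass, and for *Gnas* the log2 fold change was -0.00 ± 0.17. All 21 calls kept their direction in each library alone, which are the libraries that gave the calls. The part of neuronal RNA in the non-neuronal classes, shown by the neuron markers above, in these differences was not tested.

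Other genes of cyclic AMP and cyclic GMP signalling, 45 of 59 of which were tested, had 17 higher (37.8%) and 10 lower (22.2%) in the same contrast. The shares for all genes in this contrast are those of the paragraph above, and the lower share was near that of all genes. No counts of this list with the other clusters are given here. The higher genes of lowest p were *Akap6*, an anchoring protein for protein kinase A (log2 fold change 2.62 ± 0.13, edgeR adjusted p = 6.67e-17), and *Prkg1*, a cyclic GMP-dependent protein kinase (2.74 ± 0.15, edgeR adjusted p = 5.38e-16). The lower genes of lowest p were *Rapgef3*, a cyclic AMP-activated exchange factor (-2.92 ± 0.38, edgeR adjusted p = 8.67e-08), and *Gucy1a1*, a subunit of soluble guanylyl cyclase (-2.13 ± 0.31, edgeR adjusted p = 9.3e-07).

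The sensory neuron-like nuclei formed 7 types, named by a leading gene. With clusters on 10 components and wider neighbourhoods, only 2 clusters were named sensory neuron-like, so that the 7 types rest on the clusters used. The *Unc5d*, *Tmc3* and *Cysltr2* types carried markers of nodose neurons, which arise from placodes, and the *Mrgprd* and *Trpm8* types those of jugular neurons, which arise from neural crest. The *Grm8* and *Cdh9* types carried too few markers for either name. *Trpv1*, the capsaicin receptor, was highest in the *Trpm8* type (3.19) and the *Unc5d* type (1.71), and *Piezo2*, the mechanosensitive channel, in the *Cdh9* (25.4), *Grm8* (14.3) and *Mrgprd* (9.98) types. In a fit of the 7 types, each against the mean of the others, 62 of 203 tests of members were higher (30.5%, against 12.0% for all genes) and 54 were lower (26.6%, against 8.69%) in edgeR. The direction was the same in each library alone, from which the calls also come, in 115 of 116 calls. The exception was *Pde4c* in the *Mrgprd* type, with 0.0107 in the female pool and 0.280 in the male pool. *Adcy6* alone among the 29 tested members had no call in any type. The share of all genes with a call in any type is not given, so that this cannot be read as particular to the members. *Pde1b* passed the filter on low counts only through the *Cdh9* type, and its only call was there. That call is a matter of the selection, and it is among the 62 and among the higher members of the *Cdh9* type below. The *Unc5d* type had 12 members higher and 7 lower (all genes 13% and 10.1%), and the *Mrgprd* type 7 higher and 13 lower (14.0% and 11.6%). The *Cysltr2* type had 11 and 4 (12.5% and 8.0%), the *Trpm8* type 10 and 8 (8.32% and 5.73%), and the *Tmc3* type 8 and 6 (11.9% and 7.94%). The *Grm8* type had 8 and 7 (13.6% and 7.94%) and the *Cdh9* type 6 and 9 (10.5% and 9.56%).

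**Figure D3:**
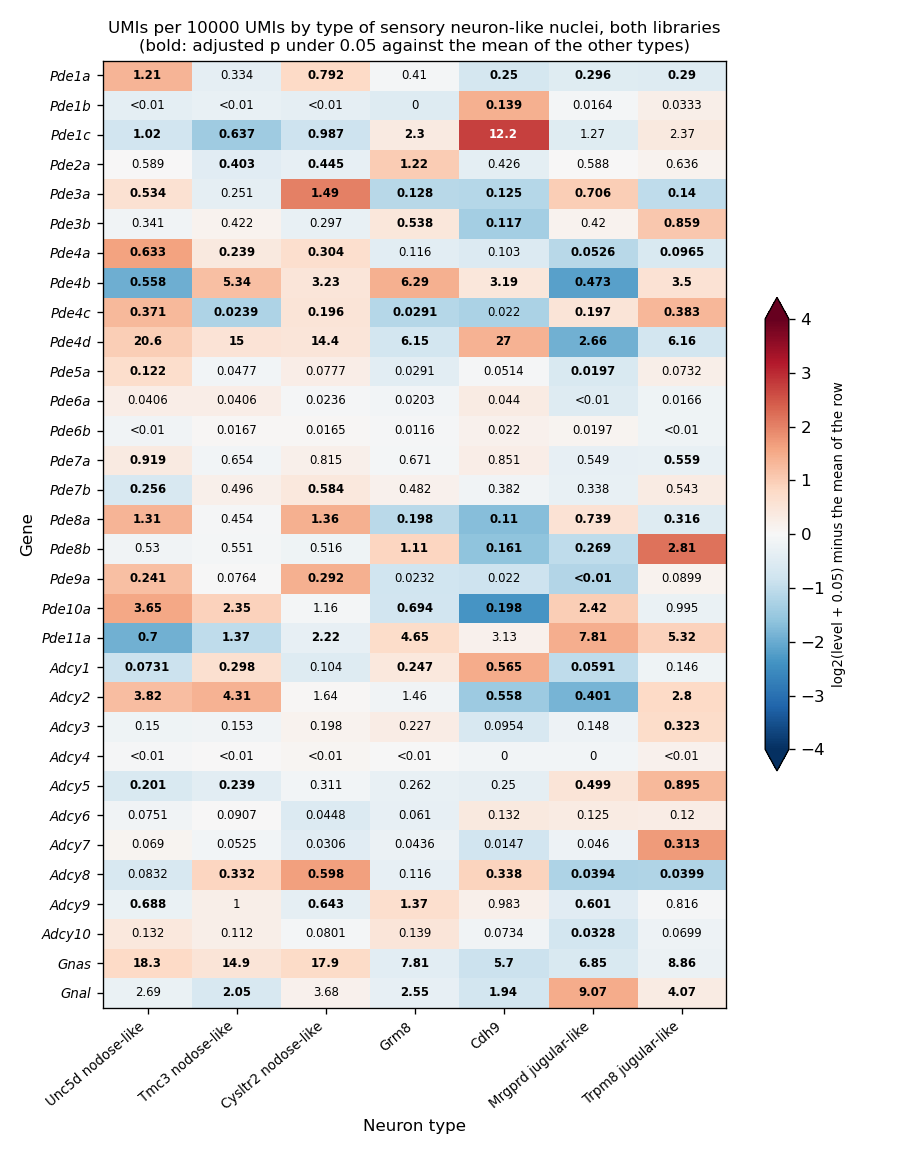
Levels of the 32 members (rows) in the 7 types of sensory neuron-like nuclei (columns), as UMIs per 10000 UMIs over both libraries; colours show log2(level + 0.05) minus the mean of the row, and bold values passed edgeR against the mean of the other types. *Pde1c* stood out in the *Cdh9* type (12.2), *Pde8b* in the *Trpm8* type (2.81) and *Gnal* in the *Mrgprd* type (9.07).

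The phosphodiesterases differed among the neuron types. In the *Cdh9* type *Pde1c* was at 12.8 in the female pool and 11.9 in the male pool, above every other type in each library (log2 fold change 3.27 ± 0.15, edgeR adjusted p = 2.39e-15). *Pde1b*, scarce elsewhere, was at 0.0877 in the female pool and 0.157 in the male pool in the same type, on 3 and 16 UMIs. It passed the filter on low counts only through this type, so that no test is given. The *Cdh9* type was in turn low in *Pde10a*, at 0.234 in the female pool and 0.186 in the male pool (log2 fold change -2.91 ± 0.27, edgeR adjusted p = 5.32e-09), and low in *Pde8a*, at 0.0877 in the female pool and 0.118 in the male pool (edgeR adjusted p = 1.12e-05). *Pde8b* was highest in the *Trpm8* type, at 2.83 in the female pool and 2.79 in the male pool (log2 fold change 2.58 ± 0.14, edgeR adjusted p = 4.88e-13). *Pde3b* was also higher in the *Trpm8* type, at 0.870 in the female pool and 0.852 in the male pool (edgeR adjusted p = 2.52e-07). Both genes were higher in the *Grm8* type too, *Pde8b* with a log2 fold change of 1.16 ± 0.17 (edgeR adjusted p = 5.78e-06) and *Pde3b* with 0.66 ± 0.16 (edgeR adjusted p = 0.0036). *Pde11a*, the member most biased to sensory neurons, was highest in the *Mrgprd* type, at 9.53 in the female pool and 7.05 in the male pool (log2 fold change 1.84 ± 0.10, edgeR adjusted p = 8.87e-14), and lowest in the *Unc5d* type, at 0.946 in the female pool and 0.559 in the male pool (log2 fold change -2.35 ± 0.14, edgeR adjusted p = 1.22e-12).

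Several phosphodiesterases were highest in the *Unc5d* or the *Cysltr2* type. *Pde4a* was highest in the *Unc5d* type, at 0.612 in the female pool and 0.645 in the male pool (log2 fold change 2.27 ± 0.15, edgeR adjusted p = 5.13e-12). *Pde8a* was at 1.49 in the female pool and 1.21 in the male pool in the *Unc5d* type and at 1.61 in the female pool and 1.28 in the male pool in the *Cysltr2* type, and both were higher (edgeR adjusted p of at most 4.89e-10). *Pde3a* was highest in the *Cysltr2* type, at 2.31 in the female pool and 1.23 in the male pool (log2 fold change 2.72 ± 0.17, edgeR adjusted p = 4.67e-12). *Pde1a* was highest in the *Unc5d* type, at 1.54 in the female pool and 1.02 in the male pool (edgeR adjusted p = 1.76e-10). *Pde10a* was at 3.72 in the female pool and 3.61 in the male pool in the *Unc5d* type (log2 fold change 1.83 ± 0.13, edgeR adjusted p = 1.23e-11), and the jugular-like *Mrgprd* type was higher than the mean of the others too, at 2.62 in the female pool and 2.33 in the male pool. *Pde9a* was at 0.441 in the female pool and 0.245 in the male pool in the *Cysltr2* type (edgeR adjusted p = 1.54e-08), while the *Mrgprd* type had 0 in the female pool and 0.00949 in the male pool. The cyclic GMP enzyme *Pde5a*, lowest of all classes in neurons, was highest among types in the *Unc5d* type, at 0.128 in the female pool and 0.118 in the male pool (edgeR adjusted p = 0.000873).

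*Pde4b* and *Pde4d* did not follow the same order. *Pde4b* was highest in the *Grm8* type, at 7.45 in the female pool and 5.58 in the male pool (log2 fold change 1.71 ± 0.14, edgeR adjusted p = 7.52e-10), and low in the *Unc5d* type, at 0.774 in the female pool and 0.434 in the male pool (log2 fold change -2.40 ± 0.20, edgeR adjusted p = 6.56e-10). *Pde4d* was highest in the *Cdh9* type, at 27.6 in the female pool and 26.9 in the male pool (log2 fold change 1.67 ± 0.14, edgeR adjusted p = 5.23e-10), and high in the *Unc5d* type, at 24.2 in the female pool and 18.6 in the male pool (edgeR adjusted p = 1.78e-07). Over both libraries both genes were lowest in the *Mrgprd* type. *Pde4b* was there at 0.470 in the female pool and 0.474 in the male pool and *Pde4d* at 1.59 in the female pool and 3.14 in the male pool (edgeR adjusted p of at most 9.16e-10). *Pde2a* shared its peak with *Pde4b*, at 1.25 in the female pool and 1.20 in the male pool in the *Grm8* type (edgeR adjusted p = 1.35e-08). *Pde4c* was higher in the *Unc5d* type, at 0.362 in the female pool and 0.377 in the male pool, and in the *Trpm8* type, at 0.287 in the female pool and 0.445 in the male pool. *Pde7a* and *Pde7b* each passed in only 2 types. The highest *Pde7b* level was in the *Cysltr2* type, at 0.725 in the female pool and 0.540 in the male pool (edgeR adjusted p = 0.028), and the highest *Pde7a* level in the *Unc5d* type, at 0.879 in the female pool and 0.942 in the male pool (edgeR adjusted p = 0.00493).

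The cyclases were divided among the types as well. *Adcy2* was highest in the *Tmc3* type, at 4.62 in the female pool and 4.19 in the male pool (log2 fold change 1.66 ± 0.17, edgeR adjusted p = 2.07e-08), and the *Unc5d* type followed at 3.44 in the female pool and 4.03 in the male pool. In the *Mrgprd* type *Adcy2* was low, at 0.0748 in the female pool and 0.545 in the male pool (log2 fold change -2.33 ± 0.26, edgeR adjusted p = 7.46e-08). *Adcy1* was highest in the *Cdh9* type, at 0.468 in the female pool and 0.598 in the male pool (edgeR adjusted p = 4.77e-07), and *Adcy8* in the *Cysltr2* type, at 1.15 in the female pool and 0.425 in the male pool (edgeR adjusted p = 7.58e-09). The *Trpm8* type carried several others. *Adcy7*, which among the classes was highest in macrophage-like nuclei, was at 0.262 in the female pool and 0.346 in the male pool (log2 fold change 2.89 ± 0.27, edgeR adjusted p = 8.91e-09). *Adcy5* was at 0.878 in the female pool and 0.906 in the male pool (log2 fold change 1.56 ± 0.15, edgeR adjusted p = 1.28e-08). *Adcy3* was at 0.236 in the female pool and 0.379 in the male pool (edgeR adjusted p = 0.00539). *Adcy9* was highest in the *Grm8* type, at 1.60 in the female pool and 1.23 in the male pool (edgeR adjusted p = 1.12e-05), and *Adcy10* was low in every type and lower in the *Mrgprd* type, at 0.0321 in the female pool and 0.0332 in the male pool (edgeR adjusted p = 0.0286). *Adcy4* was near 0 in every type, with at most 0.00999 over both libraries.

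The genes of Gs and Golf were highest in different types. *Gnas* was higher in each nodose-like type, at 18.3 in the female pool and 18.2 in the male pool in the *Unc5d* type (log2 fold change 1.04 ± 0.11, edgeR adjusted p = 1.93e-08). In the *Cdh9* type *Gnas* was lowest over both libraries, at 4.97 in the female pool and 5.95 in the male pool (edgeR adjusted p = 4.73e-06). *Gnal* was highest in the *Mrgprd* type, at 8.08 in the female pool and 9.51 in the male pool (log2 fold change 1.84 ± 0.09, edgeR adjusted p = 1.49e-14). In the *Unc5d* type *Gnal* was at 2.65 in the female pool and 2.71 in the male pool and did not pass the test. The *Mrgprd* type was thus high in *Gnal* and *Pde11a* and low in *Gnas*, *Pde4b*, *Pde4d* and *Adcy2*, each in both libraries.

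The windows around the transcription starts of the members were searched for the letters that the cyclic AMP response element-binding protein CREB recognises, because several phosphodiesterase genes are known as CREB targets. RefSeq start windows of 300 bases (GRCm38.p6) were held for 24 of the 32 members, 51 windows in all. The full palindrome TGACGTCA was in 0 of these 51 and in 1.79% of 32851 windows of all genes. Its core TGACG, read on either strand, was in 11 of 51 (21.6%) and in 20.8% of all windows. A match is a description of the letters. Shown are a window of *Pde4b*, which was higher in both sensory neuron-like and granule cell-like nuclei, and one of *Gnas*, the member with the most UMIs, with the core in capitals, the first at chr4:102421305-102421604 and the second at chr2:174327499-174327798, both on the plus strand.
Pde4b: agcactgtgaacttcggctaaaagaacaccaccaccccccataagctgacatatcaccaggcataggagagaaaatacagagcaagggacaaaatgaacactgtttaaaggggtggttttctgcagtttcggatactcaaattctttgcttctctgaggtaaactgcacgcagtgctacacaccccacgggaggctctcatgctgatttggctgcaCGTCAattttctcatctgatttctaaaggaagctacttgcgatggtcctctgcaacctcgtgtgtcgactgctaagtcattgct
Gnas: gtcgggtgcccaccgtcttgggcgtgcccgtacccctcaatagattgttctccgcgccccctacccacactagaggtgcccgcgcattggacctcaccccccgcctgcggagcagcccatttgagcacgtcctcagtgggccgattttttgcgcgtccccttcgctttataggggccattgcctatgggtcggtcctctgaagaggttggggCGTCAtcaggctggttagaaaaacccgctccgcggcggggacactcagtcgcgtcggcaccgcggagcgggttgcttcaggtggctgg

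The female and the male library were compared without a test, since each sex has 1 library. Over all nuclei, 4 members were past 2-fold higher in the female library (951 of 19305 genes with at least 20 UMIs, 4.93%) and 1 in the male library (461 genes, 2.39%). *Pde10a* was at 4.03 in the female pool and 1.78 in the male pool, a log2 ratio of male over female of -1.18 (95% interval -1.23 to -1.12). *Pde3b* was at 1.05 in the female pool and 0.484 in the male pool, with a log2 ratio of -1.11 (95% interval -1.22 to -1.01). *Adcy1* was at 0.570 in the female pool and 0.274 in the male pool, with a log2 ratio of -1.06 (95% interval -1.20 to -0.92). *Pde6a*, on 96 and 64 UMIs, had a log2 ratio of -1.24 (95% interval -1.72 to -0.77), and *Pde6b*, on 15 and 50 UMIs, one of 1.08 (95% interval 0.22 to 2.02). Of the granule cell-like nuclei, 471 of 496 were female. Without them the log2 ratio was -0.61 for *Pde10a* and -0.44 for *Adcy1*, and for *Pde3b* it was -0.97. Then 0 of 32 members were past 2-fold higher in the female library (4.4% of 19182 genes), a choice made after the data were seen, and 1 in the male library (2.23%). Within adipocyte-like nuclei, where *Pde3b* was highest, the libraries were close, at 13.6 in the female pool and 15.1 in the male pool, and 2.29% of female but 0.65% of male nuclei were adipocyte-like. Other classes differed. Of the 10 tested classes with at least 20 *Pde3b* UMIs, 5 were higher in the female library with the interval below 0, and 0 in the male library. In endothelial cell-like nuclei *Pde3b* was at 1.16 in the female pool and 0.279 in the male pool, with a log2 ratio of -2.06 (95% interval -2.86 to -1.32). These nuclei came from a cluster of 83 female and 22 male nuclei and another of 134 female and 176 male nuclei. The part of this mix in the difference was not tested.

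**Figure D4:**
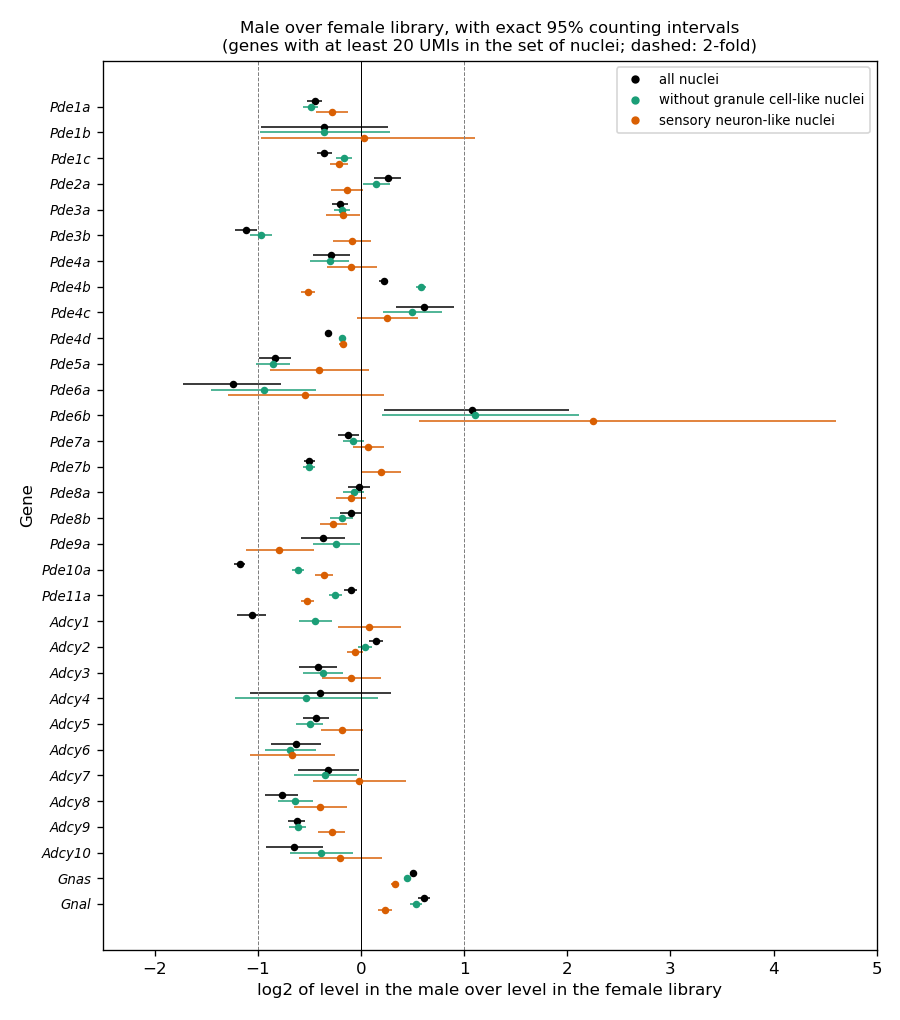
Log2 of the level in the male over that in the female library (x axis) for the members (y axis), over all nuclei (black), without granule cell-like nuclei (green) and in sensory neuron-like nuclei (orange), with exact 95% counting intervals; dashed lines mark 2-fold. *Pde10a* moved from -1.18 to -0.61 without granule cell-like nuclei and was -0.36 in sensory neuron-like nuclei.

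Within classes both G protein genes were higher in the male library in most cases. *Gnas* was higher in the male library, with its interval above 0, in 10 of 11 tested classes, and *Gnal* in 9 of 11. For *Gnas* the log2 ratio was 0.90 (95% interval 0.75 to 1.05) in endothelial cell-like nuclei, 0.88 (95% interval 0.64 to 1.12) in macrophage-like nuclei and 0.33 (95% interval 0.29 to 0.36) in sensory neuron-like nuclei. The exception was adipocyte-like nuclei, with -0.12 (95% interval -0.32 to 0.08). *Gnal* had a log2 ratio of 1.42 (95% interval 0.92 to 1.95) in endothelial cell-like nuclei and 0.23 (95% interval 0.17 to 0.30) in sensory neuron-like nuclei. Beside this, the summed level of the neuron markers was higher in the male library in each tested class, for example 25.4 (female) and 52.4 (male) in macrophage-like nuclei and 55.6 and 63.4 in sensory neuron-like nuclei, and its part in the differences of *Gnas* and *Gnal* was not tested. In the other direction, *Pde4d* was higher in the female library in 9 of 11 classes, *Pde10a* in 8 of 11 and *Adcy9* in 8 of 11. These counts of classes, and those of *Gnas* and *Gnal*, were made for the members only. No share over all genes stands beside them, so that they cannot be read as particular to these members. *Pde10a* in pituitary cell-like nuclei had a log2 ratio of -0.36 (95% interval -0.51 to -0.22) and in sensory neuron-like nuclei -0.36 (95% interval -0.45 to -0.28). In sensory neuron-like nuclei 1 of 31 members was past 2-fold higher in the male library (1.85% of 17212 genes) and 0 in the female library (1.33%), the former being *Pde6b* on 3 female and 30 male UMIs. *Pde4b* in sensory neuron-like nuclei had a log2 ratio of -0.51 (95% interval -0.58 to -0.45) and *Pde11a* one of -0.52 (95% interval -0.58 to -0.45), both lower in the male library. Over all nuclei *Pde4b* had a log2 ratio of 0.22 (95% interval 0.18 to 0.26), the opposite direction, and the sympathetic neuron-like nuclei, where its level was highest, were 9 female and 148 male.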

How the data were processed

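Nuclei of the 2 pools were sequenced on the 10x Genomics platform. The authors aligned the reads to mm10 with Cell Ranger 7.1.0 per the study's methods, took in intronic reads, removed debris and possible doublets with Cell Ranger and DIEM, and merged the libraries with a normalisation of read depth. The deposited values are UMI counts per gene and nucleus. Barcodes ending in 1 were assigned to the female and those ending in 2 to the male library, because their numbers equal the numbers of nuclei the study gives per sex. No doublet caller was run here.

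Clusters were built with scanpy 1.11.5 (3000 variable genes, 30 components, 20 neighbours, Leiden resolution 1.0, 29 clusters). The members, the pathway list and sex-linked genes, 97 genes in all, were left out of this step. Classes were drawn from the other genes of the same nuclei, and the limits for naming them from markers were set after the clusters were seen. The 5 unnamed clusters, with 1731 nuclei (19.9% of all), were not tested. UMIs were summed per library and class or neuron type, for groups of at least 20 nuclei in each library, and tested with edgeR 4.0.16 (TMM, filterByExpr, quasi-likelihood test with the library as a covariate), with Benjamini-Hochberg adjustment and a threshold of 0.05. The step was tested on simulated data. The libraries held medians of 2381 and 2658 UMIs per nucleus. Ratios between the libraries carry exact intervals and no test, and a gene needed 20 UMIs to be counted. Alternatives were RLE size factors, no filter, no library term, DESeq2 1.42.0, other clusters, nuclei of over 2000 UMIs, each library alone, and means over classes or nuclei. Members called in a class or type, members past 2-fold between libraries, and the 2 pathway genes of lowest p in each direction were named. The members and lists were chosen with earlier results of these data known.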

Additional observations from a re-analysis of the deposited data

Results flagged for a closer look

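Some groups that the comparisons did not use, because they had no name or under 20 nuclei in a library, held members above every tested class. *Pde4b* had a level of 32.75 UMIs per 10000 UMIs in sympathetic neuron-like nuclei (95% interval 31.98 to 33.53) and of 22.14 (20.05 to 24.38) in an unnamed cluster led by *Gria1* and *Slc1a2*. *Pde9a* was at 0.6555 (0.5511 to 0.774) in sympathetic neuron-like nuclei. *Adcy2* was at 7.315 (5.095 to 10.17) in skeletal muscle-like nuclei, of which there were 15 female and 3 male. *Adcy8* was at 1.843 (1.472 to 2.279) in an unnamed cluster led by *Adarb2* and *Nxph1*, with 67 female and 8 male nuclei. The intervals cover counting error only.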

How the results depend on the processing

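No paired analysis was possible because each sex has 1 library, and the library term of the edgeR fit already joins the classes of a library. With clusters on 10 components and wider neighbourhoods, 7 members were higher in sensory neuron-like nuclei than in the non-neuronal classes, against 14, and 3 members turned: *Pde4a* to -0.59 (edgeR adjusted p = 0.0962), *Pde9a* to -1.205 (edgeR adjusted p = 0.0191) and *Adcy10* to -0.145 (edgeR adjusted p = 0.825). Without the library term, 4 members were lower in that contrast, against 7, and 38 tests of members by class were lower, against 61. Between the libraries, 0 members were past 2-fold higher in the male library with a mean over nuclei, against 1. In the female direction 1 was past 2-fold with a mean over classes, 0 without granule cell-like nuclei and 0 without these, pituitary cell-like nuclei and the *Adarb2* cluster, against 4. The last 2 settings were chosen after seeing the data. Of the named results, 79 kept direction and side of the threshold with DESeq2 and 7 no longer passed, and 87 kept both with RLE size factors. With each library alone no test was possible, and among the calls by class and by neuron type the direction turned only for *Pde1a* in pituitary cell-like nuclei and *Pde4c* in the *Mrgprd* type, both in the female library. The value moved by more than 1 SD between the libraries for 47 of 87 named results without the female and 36 of 87 without the male library. This SD was taken from the same 2 single-library values, which had no TMM scaling. These counts therefore cannot tell how far a result depends on 1 library. The cause of the changes given in this section was not tested.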
